A study of Mus musculus with 3 samples.

Results

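Inert guides are the controls of a pooled tumour experiment: guide RNAs that match no mouse gene, so that a clone carrying one shows how a tumour grows when no gene is targeted. All entries for the guides NT1 and NT2, which are non-targeting, and for Neo1, Neo2 and Neo3, which are aimed at a neomycin resistance sequence, were taken, with no choice by size. These 5 of the 13 guides in the pool marked 722958 of 1318841 listed clones (54.8%). Of these clones 262094 carried an NT guide and 460864 a Neo guide, with 377879 in KT, 292354 in KTC and 52725 in KPTC mice.

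Tumours were started in 17 mice by giving 1 lentiviral pool (NL_Ambra1_Palbo_PoolA) into the trachea, and lungs were taken 15 weeks later. Of these, 4 (2 female, 2 male) were KT, which lacks Cas9. The others were KT;Cas9, written KTC and wild type for p53 (9 mice, 5 female and 4 male), and KPT;Cas9, written KPTC (4 mice, all male). By the usage of this field, T stands for a Cre-activated tdTomato reporter, C for a Cre-activated Cas9 and P for p53 alleles that Cre deletes. The alleles written K and T were common to all mice, and since the virus brings the Cre, these changes occur in the cells it enters. KTC differed from KT by Cas9, KPTC from KTC by p53, and KPTC from KT by both, with the sexes unequal between groups. The age of the mice is not given in the sources used here. The mouse was the replicate, and mice carry a number within their genotype, by which no mice are paired. The source is labelled as lung epithelial cells, which DNA barcodes carry no marker to check.

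In tumour barcoding with deep sequencing (Tuba-seq), each vector carries Cre, a guide and a random barcode, so that the cells descended from 1 infected cell share a barcode and can be counted from its reads. Inert guides set the baseline against which the guides to genes are read. The design classes differ in what they ask of Cas9: a non-targeting guide gives it no site to cut, whereas a Neo guide can direct a DNA break to a sequence that is no gene of the cell, and p53 takes part in the cell's response to such breaks. Where Cas9 is absent, as in KT mice, neither class cuts.

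A clone here is 1 guide and barcode in 1 mouse. Every one of the 722958 inert barcodes had 30 bases, of which 20 vary and 10 are fixed. The largest NT and the largest Neo clone of each genotype are shown because they are the ends of the distributions described below. They are written in the orientation of the deposited tables, with the fixed bases in capitals and the varying ones in lower case.
KT mouse 3, NT2, 289002 cells: GCgctagTAtcgttGCggcggTAtctcgGC
KT mouse 3, Neo2, 110917 cells: GCtattgTAgagaaGCcgttgTAgcccgGC
KTC mouse 8, NT2, 110040 cells: GCaaagaTAagccaGCaagctTAatacgGC
KTC mouse 2, Neo1, 107373 cells: GCacataTAagcaaGCacacaTAacgtaGC
KPTC mouse 1, NT2, 437226 cells: GCgcgtaTAcgccgGCgggctTAgacggGC
KPTC mouse 1, Neo2, 413652 cells: GCtttctTAggtgaGCtagtgTAgactaGC

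Some barcodes were listed in more than 1 mouse. Of 654579 combinations of an inert guide and a barcode, 58219 (8.89%) were in several mice, at most in 12 of 17. The combinations of NT1, Neo1 and Neo2 found in the most mice follow, to set beside the large clones, with capitals marking the fixed bases again.
NT1, 12 mice, 22.3 to 361 cells: GCtactaTAcgcgcGCacccaTActcccGC
Neo1, 12 mice, 18.5 to 388 cells: GCctacaTAactgtGCgaatgTAgatctGC
Neo2, 10 mice, 22.0 to 481 cells: GCggattTAtatttGCtctttTAgtttaGC
None of these reached 500 cells in any mouse. Of the 6 largest clones above, only the NT2 clone of KT mouse 3 had a barcode listed in other mice, 3 mice in all. Over all inert clones the share with a barcode listed in another mouse was nearly flat over size, from 17.4% under 50 cells to 18.6% at 20000 cells or more. It differed by guide: per mouse it was 42.2% ± 1.86 for NT2, 17.1% ± 1.10 for Neo3, 12.6% ± 0.76 for NT1, 11.2% ± 0.59 for Neo1 and 9.03% ± 0.60 for Neo2 (SD, n = 17 mice). The lowest mouse for NT2, at 38.3%, lay above the highest mouse of every other inert guide, 19.8%. A barcode that marks more than 1 clone in a mouse is listed once with their summed cells, and how often this occurred was not tested, so results are given without shared barcodes where that changes them.

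The depth behind a clone differed between mice. Inert clones had 80586 to 5556450 reads per mouse, and no clone was listed with under 2 reads. One read stood for 9.74, 7.33, 20.3 and 1.08 cells in KT mice 1 to 4, for 1.89 to 8.88 cells (median 4.16) in KTC mice, and for 132, 13.4, 27.1 and 3.71 cells in KPTC mice 1 to 4. The smallest clone that could be listed therefore ran from 2.15 cells (KT mouse 4) up to 263 cells (KPTC mouse 1), and a clone of 500 cells rested on 465 and 3.80 reads there. Binomial intervals here cover counting error only, since no molecular identifiers were read and PCR copies are not separate molecules.

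Most inert clones were small. The median listed clone had 68.2, 44.0, 81.3 and 22.6 cells in KT mice 1 to 4, between 20.8 and 61.7 cells (median 37.1) in KTC mice, and 395, 134, 81.4 and 52.0 cells in KPTC mice 1 to 4. These medians followed the floor of each mouse, being only 3 to 21 reads, so they were not compared between genotypes. Clones of under 50 cells made up 38.0%, 52.4%, 29.5% and 80.5% of the listed inert clones in KT mice 1 to 4. In KTC mice the same share ran from 40.6% to 86.3% (median 63.1%), and in KPTC mice it was 0%, 13.7%, 0% and 47.2%, mice 1 and 3 having floors above 50 cells.

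From this base the sizes rose steeply to the largest clone. The 99th percentile of listed inert clones was 2814, 1663, 2893 and 521 cells in KT mice 1 to 4, and 221 to 2838 cells (median 808) in KTC mice. In KPTC mice 1 to 4 it was 17126, 7965, 3742 and 1197 cells. The groups overlapped. The largest inert clone of a mouse had 43172, 102339, 289002 and 49564 cells in KT, 1466 to 110040 cells (median 42865) in KTC, and 437226, 117640, 218756 and 91873 cells in KPTC. Its ratio to the median clone of the same mouse was 2178 ± 1198 in KT mice, 1312 ± 954 in KTC mice and 1611 ± 811 in KPTC mice (SD, n = 4, 9 and 4), ranges that overlapped.

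A few clones thus held much of the neoplastic tissue. The largest 1% of listed inert clones held 33.5%, 30.1%, 33.8% and 29.6% of the inert cells in KT mice 1 to 4, from 11.2% to 34.2% (median 28.9%) in KTC mice, and 39.4%, 42.4%, 54.4% and 42.5% in KPTC mice 1 to 4. Every KPTC mouse lay above every KT and KTC mouse in this share. Small clones were the other side of this: clones of under 500 cells held 42.5%, 50.3%, 39.4% and 69.9% of inert cells in KT, 38.2% to 97.1% (median 61.5%) in KTC, and 11.2%, 29.3%, 31.8% and 47.4% in KPTC. Here KPTC mouse 4 lay above KT mice 1 and 3 and the lowest KTC mouse, so the groups overlapped. Both shares depend on the floor of each mouse and no test was made of them.

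Over a floor common to most mice, the small end gave no call between genotypes. Of the inert clones with at least 50 cells, those under 500 cells were 91.8% ± 1.96 in KT (SD, n = 4) and 94.8% ± 3.44 in KTC (SD, n = 9). They were 94.2% and 87.8% in KPTC mice 4 and 2, the only KPTC mice with a floor under 50 cells. No pair of genotypes passed in an exact two-sided permutation test of mouse labels on log2 shares (adjusted p = 0.33 for KTC against KT and for KTC against KPTC, 0.87 for KPTC against KT). With KTC mouse 2 left out, KTC passed against KT with a log2 difference of 0.06 (exact permutation, adjusted p = 0.030).

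The first comparison asked how large inert clones grew in each genotype once past 500 cells, a size above the floor of every mouse. In KPTC mouse 1 that size rested on only 3.80 reads, so sizes near it are coarse there. Inert clones were larger in KPTC mice than in KTC mice, and their sizes were more widely spread. The log-normal mean size, a maximum-likelihood mean that limits the weight of single giant clones, was 1797, 1477, 1765 and 1325 cells in KT mice 1 to 4. It ran from 666 to 1699 cells (median 1470) in KTC mice and was 2056, 2265, 2768 and 1793 cells in KPTC mice 1 to 4. All 9 KTC mice lay below all 4 KPTC mice, whereas KPTC mouse 4 fell below KT mouse 1. The mean was 1591 ± 228 cells in KT, 1350 ± 325 cells in KTC and 2221 ± 413 cells in KPTC mice (SD, n = 4, 9 and 4). The log2 difference of KTC from KPTC was -0.75, or 0.595-fold (exact two-sided permutation of mouse labels, p = 0.0070, adjusted over the 3 pairs 0.021). KTC against KT, at -0.27, and KPTC against KT, at 0.47 or 1.39-fold, missed the threshold (exact permutation, adjusted p = 0.26 and 0.086). The call of KTC against KPTC was lost without KPTC mouse 2 (-0.73, exact permutation, adjusted p = 0.055) or KPTC mouse 3 (-0.64, adjusted p = 0.095), and the KPTC excess over KT passed without KPTC mouse 4 (0.57, adjusted p = 0.043). That excess also passed at a minimum of 1000 cells (0.80) and without barcodes listed in several mice (0.47), with an adjusted p of 0.043 in the exact permutation test for both. At a minimum of 200 cells the difference of KTC from KPTC was -0.47 and missed the threshold (exact permutation, adjusted p = 0.14).

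Among clones past 500 cells, the median overlapped between genotypes, whereas the upper end of KPTC lay above the others. The median of inert clones past 500 cells was 945 ± 84.5 cells in KT, 845 ± 129 cells in KTC and 919 ± 41.4 cells in KPTC mice (SD, n = 4, 9 and 4). The 95th percentile was 5579 ± 1300 cells in KT, 4531 ± 2028 cells in KTC and 12099 ± 4207 cells in KPTC mice (SD, same n), and all 4 KPTC mice lay above every KT and KTC mouse. Used as the measure of size, the 95th percentile gave a log2 difference of 1.08 between KPTC and KT that passed (exact permutation, adjusted p = 0.043), and the geometric mean gave -0.36 between KTC and KPTC that did not (adjusted p = 0.10).

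The spread of sizes separated KPTC from both other genotypes. The standard deviation of log2 cells among clones past 500 cells was 1.22, 1.03, 1.16 and 1.02 in KT mice 1 to 4, between 0.33 and 1.19 (median 1.06) in KTC mice, and 1.41, 1.50, 1.63 and 1.32 in KPTC mice 1 to 4. All 4 KPTC mice lay above every KT and KTC mouse. The difference was 0.36 between KPTC and KT (exact permutation, p = 0.029, the smallest that 4 against 4 mice allow, adjusted 0.043) and -0.48 between KTC and KPTC (p = 0.0028, adjusted 0.0084). KTC did not pass against KT, at -0.13 (exact permutation, adjusted p = 0.44). Without KT mouse 2 or without KT mouse 4 the KPTC call against KT was lost (0.33, adjusted p = 0.086 in the exact permutation test for both). At a minimum of 200 cells both calls were lost, with differences of 0.15 from KT and -0.33 between KTC and KPTC (exact permutation, adjusted p = 0.13 and 0.063). KPTC mouse 1 lists no clone under 263 cells and so is cut higher than the others at that minimum.

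The upper tail of clones past 500 cells lay above a log-normal curve fitted to those same clones in every mouse. The measured 99th percentile of clones past 500 cells exceeded the one expected from that mouse's own log-normal fit by 1.56 to 2.07 times in KT mice, 1.21 to 4.98 times (median 1.90) in KTC mice and 2.12 to 3.96 times in KPTC mice. The highest ratio was that of KTC mouse 8, where the largest clone, the NT2 clone of 110040 cells shown above, held 12.7% of the cells in clones past 500 cells. The curve was fitted without allowance for the cut at 500 cells. A minimum that cuts the lower part of a distribution contributes to such a ratio, and its part was not tested. The ratios therefore cannot show whether the whole distribution has a heavier tail than a log-normal curve.

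Large clones were correspondingly more common in KPTC mice. Clones of at least 5000 cells made up 8.76%, 5.17%, 6.30% and 4.29% of inert clones past 500 cells in KT mice 1 to 4. In KTC mice the share ran from 0% to 7.41% (median 5.42%), and in KPTC mice 1 to 4 it was 10.4%, 13.4%, 15.5% and 7.17%. The 0% belongs to KTC mouse 6, with 0 of 29 clones, which allows a share of up to 10.3% (3 counts of the total). In 8 of the 9 KTC mice the share was below that of every KPTC mouse. With all mice, the difference between KTC and KPTC was -6.97 percentage points (exact permutation, adjusted p = 0.0084). On the log2 scale, which drops KTC mouse 6, it was -1.23 (n = 8 and 4, exact permutation, p = 0.016, adjusted 0.048), and that call was lost when any 1 of 10 of the 12 mice was left out, with log2 differences between -1.44 and -1.07 over all 12. KPTC against KT was 0.92 on the log2 scale, with 3 of 4 KPTC mice above every KT mouse (exact permutation, p = 0.057, adjusted 0.086). For clones of at least 20000 cells that difference was 2.39 and passed (exact permutation, adjusted p = 0.043). Pooled over mice, the inert clones past 500 cells numbered 15938 in KT, 6942 in KTC and 6176 in KPTC. At least 20000 cells were reached by 110, 30 and 161 of them in the same order, and at least 100000 cells by 5, 2 and 14.

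The number of inert clones varied more between mice of 1 genotype than their size. Clones past 500 cells numbered 7075, 3444, 4253 and 1166 in KT mice 1 to 4, from 29 to 2622 (median 649) in KTC mice, and 2930, 2312, 446 and 488 in KPTC mice 1 to 4. In KTC 8 of 9 mice lay below every KT mouse, while KPTC overlapped with both. The log2 difference between KTC and KT was -2.92 (exact permutation, p = 0.018, adjusted 0.055) and passed without KTC mouse 2 (-3.24) or KTC mouse 6 (-2.43, exact permutation, adjusted p = 0.024 for both) and at a minimum of 200 cells (-2.50, adjusted p = 0.021). KPTC against KT was -1.59 and KTC against KPTC -1.33 (exact permutation, adjusted p = 0.21 and 0.25). The number of clones depends on the virus each mouse took up, which was not measured apart from the clones, so titre and survival of clones cannot be told apart here.

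The summed cells of inert clones past 500 cells, their burden, followed number. Burden was 14635900, 5637680, 9148320 and 1800420 cells in KT mice 1 to 4, from 19377 to 4551210 (median 1113140) in KTC mice, and 9426300, 7011990, 1927260 and 1291070 in KPTC mice 1 to 4. No pair passed: the log2 differences were -3.19 for KTC against KT, -0.76 for KPTC against KT and -2.43 for KTC against KPTC (exact permutation, adjusted p = 0.071, 0.46 and 0.12). KTC against KT passed without KTC mouse 2, at -3.54, and at a minimum of 200 cells, at -2.87 (exact permutation, adjusted p = 0.048 and 0.042). At a minimum of 5000 cells KTC passed against KT at -2.65 and against KPTC at -2.81 (exact permutation, adjusted p = 0.039 and 0.030), without KTC mouse 6, which had no such clone.

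Among the 9 KTC mice, those with more inert clones past 500 cells also had larger ones past that size. Both values come from the same clones cut at the same minimum, and what this adds to the relation was not tested. The number and the size of clones past 500 cells, both on the log2 scale, gave a Pearson r of 0.81 (exact permutation p = 0.016) and a Spearman rho of 0.75 (exact permutation p = 0.025, adjusted 0.043). Without mice 6 and 7, farthest from the median number, r was 0.62 (exact permutation p = 0.15), and without mouse 6 alone it was 0.46, so the relation rests on mouse 6. The worth of 1 read moved with both, with r = 0.75 against number (exact permutation p = 0.014) and r = 0.75 against size (p = 0.0090), and its part in the relation was not tested. Without the 2 mice farthest from the median these were 0.46 (mice 6 and 7, exact permutation p = 0.29) and 0.70 (mice 1 and 6, p = 0.068), so neither held without them. These were 3 relations, with an adjusted p of 0.016 for each r.

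Inert clones held a smaller part of the neoplastic cells where Cas9 was present, although they were about as common among listed clones. Of all listed cells of a mouse, inert clones held 54.2%, 52.6%, 51.6% and 53.1% in KT mice 1 to 4, from 35.5% to 48.1% (median 39.9%) in KTC mice, and 23.4%, 19.0%, 30.7% and 20.2% in KPTC mice 1 to 4. The 3 genotypes did not overlap. Their means were 52.9% ± 1.08 in KT, 41.1% ± 4.18 in KTC and 23.3% ± 5.28 in KPTC mice (SD, n = 4, 9 and 4). Relative to KT the share was 0.773-fold in KTC and 0.433-fold in KPTC (exact two-sided permutation, adjusted p = 0.0021 and 0.029), and KTC was 1.78-fold over KPTC (adjusted p = 0.0021). Counted over cells in clones past 500 cells, the log2 difference of KTC from KT was -1.22, against -0.37 over all listed cells, and passed (exact permutation, adjusted p = 0.0042). KTC then no longer passed against KPTC, with a log2 difference of 0.35 (exact permutation, adjusted p = 0.32). With male mice only (2 KT, 4 KTC and 4 KPTC) the differences kept their direction, at -0.22, -1.18 and 0.96 (exact permutation, adjusted p = 0.13, 0.10 and 0.086). The exact permutation test allows no p under 0.067 for 2 against 4 mice and none under 0.029 for 4 against 4. KPTC against KT and KTC against KPTC each reached this limit. After adjustment over the 3 pairs none could pass, so male mice alone cannot decide whether the share differs. Of listed clones, inert guides marked 53.6% ± 1.03 in KT, 56.1% ± 1.54 in KTC and 56.0% ± 2.39 in KPTC (SD, n = 4, 9 and 4). The share of cells falls where clones with other guides are larger, so it is no measure of inert growth by itself.

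The central comparison set the NT guides against the Neo guides within each mouse, which cancels titre, depth and the worth of a read. In KT mice, where neither class can cut, the classes gave nearly the same size. NT clones past 500 cells had a log-normal mean of 1776, 1461, 1797 and 1356 cells in KT mice 1 to 4, and Neo clones 1808, 1486, 1746 and 1309. The log2 ratio of NT to Neo was 0.01 ± 0.04 (SD, n = 4), above 0 in 2 of 4 mice (exact two-sided sign-flip permutation, p = 0.75, where 4 mice cannot go below 0.125).

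In KTC mice, with Cas9 and p53, NT clones had 655 to 2063 cells (median 1525) and Neo clones 671 to 1654 cells (median 1437). The ratio was above 0 in 5 of 9 mice and averaged 0.15 ± 0.35 (SD, n = 9, exact sign-flip permutation, p = 0.23, adjusted over the 3 genotypes 0.69). Its 95% interval, from inverting the same test, ran from -0.06 to 0.46, or 0.961-fold to 1.37-fold. KTC mouse 7 stood apart at 1.03, with 2063 cells for 43 NT clones and 1012 cells for 62 Neo clones. In that mouse 7 of 43 NT clones (16.3%, 95% Wilson interval 8.12% to 30.0%) and 0 of 62 Neo clones had at least 5000 cells, and the latter allows a share of up to 4.84% (3 counts of the total). Without KTC mouse 7 the KTC mean was 0.04. In KPTC mice NT clones had 2030, 2538, 2582 and 2019 cells and Neo clones 2071, 2131, 2876 and 1684 cells in mice 1 to 4. The ratio was 0.08 ± 0.21 (SD, n = 4), again above 0 in 2 of 4 mice (exact sign-flip permutation, p = 0.50).

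Over all 17 mice NT clones were 1.07-fold the size of Neo clones, with a 95% interval of 0.989-fold to 1.18-fold. The log2 ratio was 0.10 ± 0.27 (SD, n = 17), above 0 in 9 of 17 mice (exact sign-flip permutation, p = 0.11). The ratio passed with the 95th percentile as the measure of size (0.24, exact permutation, p = 0.030) and at a minimum of 5000 cells (0.18, p = 0.048). In KTC mouse 7 that percentile was 11386 cells for NT and 2687 cells for Neo, and the result without this mouse was not tested. The value at 5000 cells leaves out KTC mouse 6, with no such clone, and KTC mouse 7, with no such Neo clone. KTC mice 1 and 8 had only 3 NT clones each of that size. The test of the difference between genotypes did not pass for any pair, with 0.14 for KTC against KT, 0.07 for KPTC against KT and 0.07 for KTC against KPTC (exact permutation, adjusted p = 0.79 for each).

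The median of all listed clones was identical for NT and Neo in 15 of 17 mice. It is a whole number of reads, 3 to 21 of them over all inert clones of a mouse, so differences of under 1 read cannot show. The exceptions were KTC mouse 5, with 39.5 cells for NT and 33.8 for Neo, and KPTC mouse 2, with 120 cells for NT and 134 for Neo. With the log2 medians of single guides averaged, NT was below Neo by a log2 ratio of -0.04 over all mice (exact sign-flip permutation, p = 0.011). The share of listed clones that passed 500 cells was 6.01%, 4.02%, 6.55% and 1.01% for NT and 6.04%, 4.03%, 6.64% and 1.07% for Neo in KT mice 1 to 4. In KTC mice it ran from 0.118% to 7.59% (median 1.58%) for NT and from 0.153% to 7.75% (median 1.78%) for Neo. KPTC mice 1 to 4 had 42.9%, 10.1%, 5.72% and 2.86% for NT and 43.2%, 10.7%, 5.54% and 3.16% for Neo. These shares depend on the floor of each mouse, 263 cells in KPTC mouse 1 and 2.15 cells in KT mouse 4. They were therefore not compared between genotypes. Beside the differences between mice, which include those of the floor, the classes differed little. The log2 ratio was -0.03 ± 0.04 in KT mice, -0.04 ± 0.20 in KTC mice and -0.05 ± 0.09 in KPTC mice (SD, n = 4, 9 and 4), below 0 in 13 of 17 mice (all mice -0.04, exact sign-flip permutation, p = 0.27, 95% interval -0.12 to 0.03). At a minimum of 200 cells the ratio over all mice was -0.06 and passed (exact sign-flip permutation, p = 0.0014). Without Neo2 it was -0.11 and passed (exact permutation, p = 0.0034), and without Neo3 it was 0.03 (p = 0.52), so the class difference depended on which Neo guides entered.

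The number of clones per guide differed between the classes, a difference that for listed clones rested on Neo2. Listed clones per guide were fewer for NT than for Neo in 17 of 17 mice, with a log2 ratio of -0.24 ± 0.02 in KT, -0.21 ± 0.02 in KTC and -0.27 ± 0.03 in KPTC mice (SD, n = 4, 9 and 4). Over all mice this was 0.853-fold (log2 -0.23 ± 0.03, SD, n = 17, exact sign-flip permutation, p = 1.5e-05, the smallest that 17 mice allow). KTC differed slightly from KPTC, by 0.06 (exact permutation, adjusted p = 0.025), and neither differed from KT past the threshold (adjusted p = 0.080 and 0.26). The number of clones past 500 cells gave -0.27 ± 0.05 in KT, -0.25 ± 0.19 in KTC and -0.32 ± 0.05 in KPTC (SD, n = 4, 9 and 4), below 0 in 16 of 17 mice (exact sign-flip permutation over all mice, p = 4.6e-05). Within KTC alone this gave an adjusted p of 0.035 (exact permutation), and the call there was lost without any 1 of mice 1, 2, 3, 4, 6, 8 and 9 (log2 ratios from -0.26 to -0.21, exact permutation, adjusted p = 0.070 each). Without Neo2, the NT over Neo ratio of listed clones was 0.01 ± 0.04 over all mice (SD, n = 17), above 0 in 12 of 17 (exact sign-flip permutation, p = 0.48). By genotype it was then 0.01 in KT, 0.03 in KTC and -0.04 in KPTC mice (exact permutation, adjusted p = 0.38, 0.082 and 0.38). Without any 1 of the other inert guides the ratio over all mice stayed below 0 in 17 of 17 mice, from -0.41 without Neo1 to -0.12 without NT1 (exact permutation, p = 1.5e-05 each). For clones past 500 cells the ratio without Neo2 was -0.10 over all mice and passed (exact permutation, p = 0.0051), while in KTC mice it was -0.08 and did not pass (adjusted p = 0.17).

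Each guide was then described alone. Neo2 marked the most inert clones in 17 of 17 mice and Neo1 the fewest in 15 of 17. Of a mouse's listed inert clones, Neo2 marked 27.7% ± 0.42, Neo3 20.6% ± 0.50, NT2 19.6% ± 0.40, NT1 16.6% ± 0.57 and Neo1 15.4% ± 0.20 (SD, n = 17). Apart from Neo3 and NT2, whose ranges overlapped, and NT1 and Neo1, neighbours in this order did not overlap between mice. The NT1 share was 15.5% to 16.0% in KPTC mice, 16.6% to 17.0% in KT mice and 16.5% to 17.4% in KTC mice, so that KPTC did not overlap with the others. Against the other inert guides the difference of NT1 listed number between KPTC and KT was -0.10 on the log2 scale and did not pass over the 13 guides (exact permutation, p = 0.029, adjusted 0.074).

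Every guide was tested against the inert guides, an inert one against the other 4, with p-values adjusted over all 13 guides of the pool. Between KPTC and KT, 4 against 4 mice allow no p under 0.029 in the exact permutation test. A guide could pass there only if many of the 13 guides reached that p at once. A result of 0% between KPTC and KT therefore does not show that the guides were alike. For listed number, 30.8% of the 13 guides passed between KTC and KT and 0% between KPTC and KT. The inert guide among them was Neo2, with a log2 difference of -0.05 between KTC and KT (exact permutation, p = 0.014, adjusted 0.045), and this call was lost when any 1 of 9 of the 13 mice was left out.

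For size, no inert guide passed in any comparison. Between KTC and KT 38.5% of the 13 guides passed, between KPTC and KT 0%, within KTC mice 61.5% and within all mice 61.5%, and the inert guides had 0 of 5 in each. The lowest adjusted p of an inert guide was 0.062, for Neo1 within KTC mice (log2 ratio -0.09 ± 0.10, SD, n = 9, exact sign-flip permutation, unadjusted p = 0.043), the only inert size value with an unadjusted p under 0.05. At a minimum of 200 cells 1 inert guide passed between KTC and KT. On the log2 scale, the ratio of an inert guide to the other 4 differed from KT by -0.10 to 0.19 in KTC mice. In KPTC mice it differed from KT by -0.06 to 0.05. For the 8 guides to genes, each against all 5 inert guides, these differences ran from 0.42 to 2.03 and from 0.49 to 2.61. Inert guides are each other's reference here, so a shift common to all of them cannot show. Within a mouse, the largest of the 5 inert guide means was 1.06 to 1.40 times the smallest in 14 of 17 mice. The others were KPTC mouse 3 at 1.72, KPTC mouse 4 at 1.77 and KTC mouse 7 at 2.92, where the scarcest guide had 60, 73 and 12 clones past 500 cells. No guide was always first: the highest mean was that of NT2 in 5 mice, NT1 in 4, Neo2 in 3, Neo3 in 3 and Neo1 in 2.

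For the number of clones past 500 cells, 0% of the 13 guides passed between KTC and KT and 0% between KPTC and KT. The lowest adjusted p of an inert guide was 0.074, for NT1 between KPTC and KT (log2 difference -0.17, exact permutation, p = 0.029, the smallest that 4 against 4 mice allow).

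The share of listed clones that passed 500 cells was higher for Neo3 than for the other 4 inert guides pooled in every mouse, and Neo3 was the highest of the 5 in 10 of 17 mice. For Neo3 it was 6.45%, 4.45%, 6.90% and 1.24% in KT mice 1 to 4, from 0.145% to 8.39% (median 2.00%) in KTC mice, and 45.0%, 10.9%, 5.96% and 3.55% in KPTC mice 1 to 4. Neo1, the neighbour in design, had 6.23%, 4.00%, 6.60% and 1.16% in KT mice 1 to 4 and 42.8%, 10.4%, 5.78% and 3.48% in KPTC mice 1 to 4. These shares too depend on the floor of each mouse, so guides were set against each other within a mouse. Neo3 was above Neo1 in 17 of 17 mice, above NT2 and above Neo2 in 15 each, and above NT1 in 14. Against the other 4 inert guides pooled Neo3 was 1.14-fold higher, a log2 ratio of 0.19 ± 0.12 (SD, n = 17), and above 0 in 17 of 17 mice (exact sign-flip permutation, p = 1.5e-05, the smallest 17 mice allow, adjusted over 13 guides 0.00020). Over all mice 69.2% of the 13 guides passed this test, and 2 of the 5 inert guides did, Neo3 and Neo2.

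The Neo3 excess was present without Cas9. This log2 ratio was 0.17 ± 0.09 in KT mice, 0.22 ± 0.13 in KTC mice and 0.13 ± 0.10 in KPTC mice (SD, n = 4, 9 and 4), and within KTC mice Neo3 passed (exact sign-flip permutation, adjusted p = 0.0063) where 61.5% of the 13 guides did. Between genotypes, where 53.8% of the guides passed for KTC against KT and 0% for KPTC against KT, no inert guide passed, and Neo3 differed by 0.05 and -0.04 (exact permutation, adjusted p = 0.52 and 0.93). Over minimum sizes of 200, 1000 and 5000 cells, at least 10 reads, barcodes of 1 mouse only and each other inert guide left out, the excess ran from 0.12 to 0.30. It passed each time over the mice with a value (exact permutation, adjusted p from 9.2e-05 to 0.020). The largest Neo3 clone had 865 cells in KTC mouse 6 and 3157 cells in KTC mouse 7. Mouse 6 therefore had no value at 1000 cells, and neither mouse had one at 5000 cells. With each mouse left out in turn the excess past 500 cells ran from 0.18 to 0.20. Neo3 showed no such excess in size past 500 cells, with a log2 ratio of 0.01 ± 0.14 (SD, n = 17, exact sign-flip permutation, p = 0.82).

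Neo2, the guide with the most clones, had the lowest mean ratio of this kind among the 5. Its log2 ratio to the other inert guides was -0.11 ± 0.19 (SD, n = 17), below 0 in 15 of 17 mice (exact sign-flip permutation, p = 0.025, adjusted 0.035). The call was lost with Neo3 out of the reference (-0.06), at minimum sizes of 200 (-0.05) and 5000 cells (-0.31), at 10 reads (-0.09), and without any 1 of 9 mice. The value at 5000 cells leaves out KTC mice 6 and 7, which had no Neo2 clone of that size. NT1, NT2 and Neo1 had ratios of -0.01 ± 0.20, -0.07 ± 0.18 and -0.02 ± 0.16 (SD, n = 17) and did not pass (exact sign-flip permutation, adjusted p = 0.90, 0.17 and 0.67).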

How the data were processed

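Per the labels' protocols, cells of 3 benchmark lines were added to each whole lung before its DNA was extracted, and the stretch with guide and barcode was then amplified. The deposited value of a clone is an estimated number of neoplastic cells, per the file headers, which the authors derived from its reads and those of the benchmark lines, per the labels' protocols. The sources used here do not give the read trimming or barcode clustering. Within a mouse every value was a whole multiple (tolerance 0.1) of the smallest value over 2, which was taken as the worth of 1 read. KPTC mice 3 and 4 carry more digits than the other mice.

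Clones of at least 500 cells entered size (log-normal maximum-likelihood mean), spread, number and burden, and large clones had at least 5000 cells. Genotypes were compared by exact two-sided permutation of mouse labels and classes or guides within mice by exact two-sided sign-flip permutation. Benjamini-Hochberg adjustment ran over 3 genotype pairs, 3 genotypes or 13 guides, with a threshold of 0.05. The test over all 17 mice was 1 test and is unadjusted. NT and Neo numbers are per guide. Comparisons with KT share the KT mice. Intervals of the NT over Neo ratios (95%) invert the sign-flip test. Every inert guide is named, with no selection, and the members and measures were chosen with earlier results of these data known. The tests were tried on simulated data. Alternatives were minimum sizes of 200, 1000 and 5000 cells, at least 10 reads, barcodes near a larger one or in several mice left out, other measures of size, guides averaged or left out, male mice only and each mouse left out. The guides' own sequences and the benchmark lines' reads were not used here. Python 3.11.15, numpy 2.4.6, pandas 2.3.3 and scipy 1.17.1 were used.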

Additional observations from a re-analysis of the deposited data

Results flagged for a closer look

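In 28 groups of 4 to 9 mice, 6 values lay far from the others of their group. The chance rate of the rule, about 1 in 20 groups, holds for independent groups without ties. Some measures here come from the same clones and others are tied at 0, so the count of 6 cannot be set against that rate. The size of inert clones past 500 cells was lowest in KTC mouse 6, at 9.38 on the log2 scale (666 cells) beside 10.13 in the nearest mouse, and so was their spread, at 0.33 beside 0.88. That mouse had 29 such clones. The share of clones under 500 cells among those of at least 50 cells was lowest in KTC mouse 2, at -0.20 on the log2 scale beside -0.10 in the nearest mouse. That mouse had the most clones past 500 cells of its genotype, 2622. The NT over Neo size ratio was highest in KTC mouse 7, at 1.03 on the log2 scale beside 0.29 in the nearest mouse, with 43 NT and 62 Neo clones past 500 cells. The NT over Neo ratio of the listed median was 0.22 in KTC mouse 5 and -0.15 in KPTC mouse 2, where all other mice of those genotypes had 0. These 2 ratios are differences of 1 read in the median.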

How the results depend on the processing

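Of 1284 alternative values of 61 results, 1102 kept their direction and their side of the threshold, 75 lost a call, 20 gained one, 86 changed sign and 1 count moved. Of the values that changed sign, only the NT over Neo listed median, taken as a mean over guides in all mice, was called, and it is given below. Genotypes could not be compared in a paired way, unlike classes and guides within a mouse. The deposited labels give each genotype as 1 sample and no replicate numbers that mice of different genotypes share. Calls between 4 and 4 mice can only be made when the groups do not overlap, so that fewer mice alone can end them. Depth limits small clones most in KPTC mouse 1. Where nothing else is said, the cause of a change was not tested. Removing clones whose barcode differs at 1 base from that of a clone 50 or more times larger, or carried by another guide with 50 times more cells, took out no clone. A share of clones from 5000 cells has no value at a minimum of 5000 cells. A ratio of classes or guides has no value in a mouse where either side lacks clones past the minimum, and such mice were left out of it. Values below are log2 differences unless said otherwise, written as first genotype minus second.

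At a minimum of 200 cells, calls were lost for size in KTC minus KPTC (-0.47), for spread in KPTC minus KT (0.15) and KTC minus KPTC (-0.33), for the large share in KTC minus KPTC (-1.42) and for Neo2 reach (-0.052), where reach is the share of listed clones past the minimum. Calls were gained for KTC minus KT in number (-2.50) and burden (-2.87), and for NT over Neo reach within KTC (-0.087) and all mice (-0.060). NT over Neo changed sign for size in KT (-0.014), number in KTC minus KT (-0.048) and reach in KTC minus KPTC (-0.037), and 1 inert guide was called for size in KTC minus KT. At 1000 cells a call was gained for size in KPTC minus KT (0.80) and lost for NT over Neo number in KTC (-0.15). Spread in KTC minus KT changed sign (0.015), as did NT over Neo size (-0.052), number (0.085) and reach (0.11) in KPTC minus KT. NT over Neo reach also changed sign in KTC (0.066), KPTC (0.022), all mice (0.016) and KTC minus KT (0.15).

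At 5000 cells calls were lost for size (-0.63) and spread (-0.28) in KTC minus KPTC, spread in KPTC minus KT (0.32), NT over Neo number in KTC (-0.23) and Neo2 reach (-0.31). They were gained for burden in KTC minus KT (-2.65) and KTC minus KPTC (-2.81) and for NT over Neo size in all mice (0.18). Signs changed for size in KTC minus KT (0.15), burden in KPTC minus KT (0.16) and spread in KTC minus KT (0.038). For NT over Neo they changed in size for KPTC minus KT (-0.18), in number for KTC minus KT (-0.032) and KTC minus KPTC (-0.00060), and in reach for KT (0.046), KPTC (0.040), all mice (0.015) and KTC minus KPTC (-0.058).

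With at least 10 reads per clone, the Neo2 reach call was lost (-0.086). NT over Neo changed sign for reach in KPTC minus KT (0.013) and KTC minus KPTC (-0.018). For the listed median it changed in KTC (-0.0092), KPTC (0.039), KTC minus KT (-0.042), KPTC minus KT (0.0068) and KTC minus KPTC (-0.049). Without barcodes listed in several mice, size in KPTC minus KT gained a call (0.47). NT over Neo then changed sign for size in KT (-0.012), number in KTC minus KT (-0.018), and the listed median in all mice (-0.020) and KPTC minus KT (0.066). The geometric mean as size lost the KTC minus KPTC call (-0.36) and turned NT over Neo in KT (-0.012). The 95th percentile gained calls in KPTC minus KT (1.08) and for NT over Neo in all mice (0.24). A mean over guides turned NT over Neo reach in KTC minus KT (0.0065) and the listed median in KTC (-0.0089) and in all mice, where it passed (-0.036).

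Leaving out NT1 turned NT over Neo size in KT (-0.012), number in KTC minus KT (-0.086), KPTC minus KT (0.041) and KTC minus KPTC (-0.13), and reach in KPTC minus KT (0.013) and KTC minus KPTC (-0.12). It also turned the listed median in KTC (-0.015), all mice (-0.017) and KTC minus KT (-0.015). Leaving out NT2 turned reach in KTC (0.034) and KTC minus KT (0.082), and the listed median in all mice (-0.012) and KPTC minus KT (0.066). Leaving out Neo1 turned number in KTC minus KT (-0.014) and reach in KTC minus KPTC (-0.034). Without Neo2, the NT over Neo ratio of listed clones changed sign in KT (0.014), KTC (0.027) and all mice (0.0074), the number call in KTC was lost (-0.076) and reach in all mice passed (-0.11). Size in KT (-0.022), reach in KTC minus KT (0.012) and KPTC minus KT (0.0023) and the listed median in all mice (-0.0069) changed sign. Without Neo3, calls were lost for number in KTC (-0.19) and Neo2 reach (-0.061), and reach changed sign in KT (0.033), KTC (0.044), all mice (0.031) and KTC minus KT (0.012).

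Counting large clones from 20000 cells gained the KPTC minus KT call (2.39), and a floor of 100 cells turned the small-clone share in KPTC minus KT (0.046). With male mice only, fewer mice were left and calls were lost for size (-0.93), spread (-0.56) and large share (-1.18) in KTC minus KPTC, spread in KPTC minus KT (0.37) and NT over Neo number in KTC (-0.30). The inert share of all cells lost its calls in KTC minus KT (-0.22), KPTC minus KT (-1.18) and KTC minus KPTC (0.96). With so few male mice no pair of genotypes could pass after adjustment. NT over Neo changed sign for number in KTC minus KT (-0.048), reach in KTC minus KPTC (-0.036) and the listed median in all mice (-0.015).

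The splits of the KPTC mice, leaving out KTC mice 6 and 7 together or barcodes carried by another guide, and every alternative for single-guide reach, listed number and the inert share of cells were chosen after seeing the data. With KPTC mice 1 and 2 only, calls were lost for size (-0.73), spread (-0.47) and large share (-1.32) in KTC minus KPTC and spread in KPTC minus KT (0.35), and burden in KPTC minus KT changed sign (0.42). With KPTC mice 3 and 4 only, the same calls were lost, at -0.77, -0.49, -1.15 and 0.37. Without KTC mice 6 and 7, KTC minus KT gained calls in number (-2.07) and burden (-2.18), the large share lost its KTC minus KPTC call (-1.30), and NT over Neo size in KTC minus KPTC changed sign (-0.032). The correlation of number and size without the 2 farthest mice was 0.62. For cells in clones of at least 500 cells, the inert share lost its KTC minus KPTC call (0.35).

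With each mouse left out in turn, KTC minus KPTC ran from -0.84 to -0.63 for size and from -1.44 to -1.07 for the large share. KPTC minus KT ran from 0.36 to 0.57 for size, 0.30 to 0.40 for spread and -0.020 to 0.0024 for the small-clone share. KTC minus KT ran from -3.42 to -2.43 for number, -3.78 to -2.55 for burden and 0.038 to 0.062 for the small-clone share. NT over Neo ran from -0.0031 to 0.023 for size in KT, -0.29 to -0.21 for number in KTC and -0.0095 to 0.014 for the listed median in all mice. Its difference ran in KTC minus KT from -0.023 to 0.055 for number and -0.056 to 0.028 for reach, in KPTC minus KT from -0.051 to 0.014 for reach, and in KTC minus KPTC from -0.043 to 0.13 for size and -0.037 to 0.047 for reach. Neo2 reach ran from -0.15 to -0.097 and the Pearson r of number and size from 0.46 to 0.91.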

Other observations

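The very large clones were also split by design class. Pooled over mice, 110 inert clones in KT, 30 in KTC and 161 in KPTC had at least 20000 cells. NT guides marked 50, 8 and 56 of these in the same order (45.5%, 26.7% and 34.8%), beside 36.1%, 36.6% and 35.8% of the listed inert clones. Of the 110 in KT, 56 were from KT mouse 1. These shares pool mice with very different numbers of clones and no test was made of them. The largest inert clone of each genotype carried NT2, the guide with the highest share of barcodes listed in several mice. Of these clones, only the one in KT had a barcode listed in other mice.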
